A study of Mus musculus with 6 samples.

Results

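The genes described are 3 semaphorins of the immune system, Sema7a (ENSMUSG00000038264.7), Sema4a (ENSMUSG00000028064.16) and Sema4d (ENSMUSG00000021451.14), out of 22322 genes in a table of ribosome footprint counts. They were found in the table by gene ID. The group was chosen with the difference in Sema7a footprints between activated and resting T cells already known, so the coding and leader values that follow are descriptions. No p-value is given for them; whether a gene passed the threshold in the fit over all genes is stated beside the share of all genes that did, and supports nothing about the 3. Ribosome profiling sequences the short stretches of mRNA that ribosomes cover, and its counts follow both the amount of an mRNA and the number of ribosomes on it.

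The 6 libraries came from CD4+ T cells of female C57BL/6J mice that were 6 weeks old, taken from spleen and lymph nodes and purified by negative selection. In 3 libraries the cells were resting, and in 3 they had been activated with beads that carry antibodies against CD3 and CD28. Libraries of both groups are labelled 0 h and untreated, and are numbered replicate 2, 3 and 4. The sources used here do not say how long the cells were activated or whether a replicate is 1 animal or a pool. Values of a group are given below in the order of replicates 2, 3 and 4. The study asked how the loss of mRNA depends on translation when T cells are activated.

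Semaphorins are secreted or cell-surface proteins that share the large Sema domain and signal mainly through plexin receptors. They were first known as guidance cues for growing axons, and several act between immune cells. Sema7a, also called CD108, is held to the membrane by a glycolipid anchor and binds plexin C1 and integrins with a beta-1 chain. It is known on activated T cells, where it stimulates monocytes and macrophages. Sema4a and Sema4d cross the membrane. Sema4a is known on dendritic cells and on T helper type 1 cells and takes part in T cell priming. Sema4d, also called CD100, is abundant on resting T cells, binds plexin B1, plexin B2 and CD72, and can be shed from the cell surface.

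In RefSeq (build GRCm38.p6) the gene Sema7a spans chr9:57939596-57962865 on the forward strand. Sema4a spans chr3:88435959-88461182 and Sema4d chr13:51685529-51793678, both on the reverse strand. The table of start sites gives 1 site for Sema7a, at 57940112, inside the span of the gene, 4 for Sema4a and 3 for Sema4d. The next stretches of 30 bases are shown because footprints in the leader, the part of the mRNA before the coding sequence (5' UTR), set Sema7a and Sema4d apart: Sema7a had none there and Sema4d had them in every library. Each is the mRNA strand around the first ATG after a start site, and the capitals mark that ATG and, where the stretch holds one, the first stop codon in its frame.
Sema7a: gtcgctccggggctgcgggATGacgcctcc
Sema4d: gggacacggtgaATGctgttcTGAtaggag

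The Sema7a stretch lies at chr9:57940132-57940161, forward strand. Only 39 bases separate the start site from this ATG, the only one in the first 50 bases, and no stop codon in its frame follows within them. The Sema4d stretch lies at chr13:51739416-51739445, reverse strand, after the start site at 51739446. All 3 start sites of Sema4d lie inside the span of the gene, and this site is the furthest from the gene's 5' end. It is the only one of the 3 with an ATG in the first 50 bases. That ATG opens a reading frame of 3 codons, followed by TGA. The table does not mark start codons, so whether either ATG is a protein's start codon was not tested. Of 32851 such windows in the table, 44.3% hold an ATG and 11.7% an ATG with a stop in its frame. The deposited counts are sums over regions of a gene, so no count can be placed on these bases, and which start sites the cells used is not known from them.

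Total coding-sequence (CDS) counts were between 437200 and 594508 in resting and between 511483 and 1074656 in activated libraries. Of the 22322 genes, 6775 passed the low-count filter, Sema7a and Sema4d among them and Sema4a not. Sema7a was under the filter's cutoff in each resting library and passed through its activated libraries alone. The IDs could be paired with symbols for the 3 semaphorins alone, so the T cell label could not be checked against marker genes here, and the lists of plexins, other receptors and signalling partners drawn up for the comparison could not be counted.

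Sema7a had almost no footprints in resting cells and many in activated cells. Its CDS counts were 2, 3 and 6 in the resting libraries and 208, 320 and 801 in the activated libraries. Every activated library was above every resting library, as it was for 28.1% of the genes tested. In CPM (counts scaled to a common library size, here with TMM factors) these were 4.21, 4.87 and 9.22 in resting and 473, 402 and 853 in activated cells. The means were 6.10 ± 2.73 and 576 ± 242 CPM (SD, n = 3 each). The log2 change fitted by edgeR was 6.48 (SE 0.38), which is 89.4-fold. The resting level rests on 11 counts in all, with an exact 95% Poisson interval of 5.49 to 19.7 counts. The ratio of the pooled counts was 96.8, with an exact interval of 53.9 to 194 that covers counting error only. By counting error alone the fold is therefore known only within a wide range, set mostly by the few resting counts. That range leaves out the spread between libraries. These are bulk samples, in which more cells with the mRNA and more of it per cell cannot be told apart, and without matched mRNA counts, which were not analysed here, neither can more mRNA and more ribosomes on each mRNA.

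**Figure D1:**
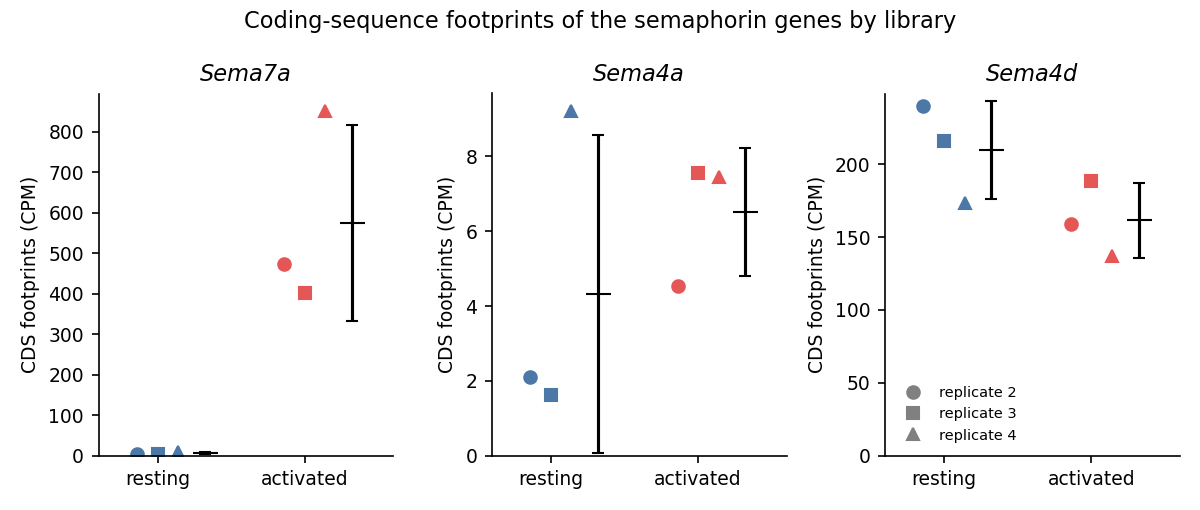
CDS footprints in CPM, on linear axes that differ between the panels, for Sema7a, Sema4a and Sema4d in each library; shapes mark the replicate number and black bars the mean ± SD of 3 libraries. Sema7a lies below 10 CPM in resting and at 402 CPM or more in activated libraries, Sema4a is below 10 CPM in each library, and the groups overlap for Sema4d.

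Beside all genes tested, 99.97% had a lower log2 change than Sema7a, and 33.1% a lower one than Sema4d. Over all genes, 45.7% passed an adjusted p of 0.05, and of the 2 semaphorins tested Sema7a passed and Sema4d did not. Since Sema7a was chosen on this difference, and passed the filter through its activated libraries alone, nothing is read from that count or from its rank. The median log2 change of all genes was -0.04 with TMM factors and -0.38 with library totals alone. Relative to that median, the log2 change was 6.52 for Sema7a and -0.33 for Sema4d under both scalings.

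**Figure D2:**
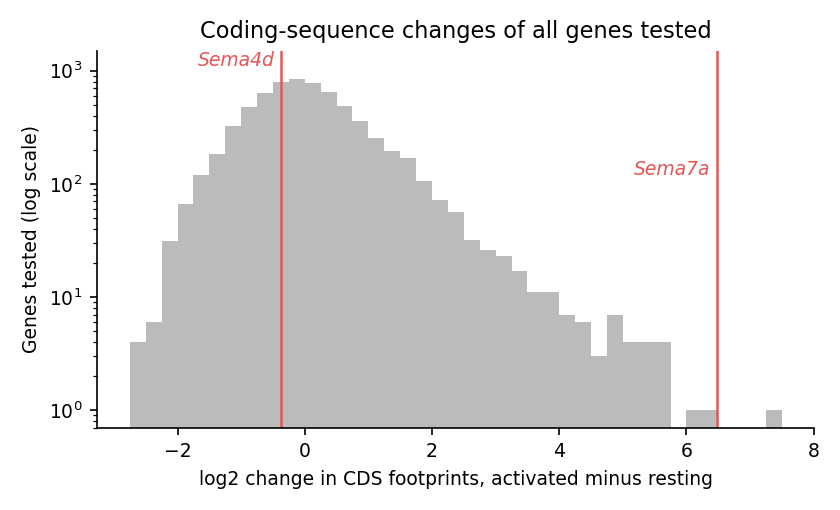
Number of genes (log scale) by their log2 change in CDS footprints, activated minus resting, over the 6775 genes tested, in classes of 0.25. Red lines mark Sema4d at -0.37, inside the bulk of genes, and Sema7a at 6.48, in the far right tail.

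The activated libraries differed among themselves in Sema7a. Activated replicate 4 was highest at 853 CPM, with a 95% Poisson interval of 795 to 914 CPM. Activated replicate 2 had an interval of 411 to 541 CPM and replicate 3 of 359 to 449 CPM, so replicate 4 stood above both by more than counting error. The coefficient of variation of Sema7a over the activated libraries was 42.1%. For the 653 genes with an activated mean within 2-fold of that of Sema7a the median was 13.5%, and 9 of the other 652 varied at least as much. Without activated replicate 4 the log2 change of Sema7a was 6.10, and without resting replicate 4, which held 6 of the 11 resting counts, it was 6.92.

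Sema7a footprints counted wholly outside its coding sequence lay in the 3' UTR, with none in the 5' UTR or in introns. Its 5' UTR had 0 counts in each of the 6 libraries, beside 1340 CDS counts, which allows up to 0.224 leader counts for every 100 CDS counts (a floor of 3 counts over the 6 libraries). That limit leaves out records that reach over an edge of the coding sequence, which are given below. Of the 601 other genes with at least as many CDS counts, 47 (7.82%) also had 0 counts there, and the median of the 601 was 5.88 per 100. A 0 is therefore uncommon among genes of this depth, which were not matched on leader length, and it is not particular to Sema7a. The length of the annotated 5' UTR behind these counts is not in the table; the RefSeq stretch shown for Sema7a has its first ATG 39 bases after the start site.

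The 3' UTR of Sema7a was at 0 counts in all resting libraries and at 13, 2 and 2 in the activated ones. Per 100 CDS counts these were 6.25, 0.625 and 0.25, so activated replicate 2 stood apart. Over all genes summed, the same library also had the most 3' UTR counts per 100 CDS counts of the activated libraries, at 4.29 against 2.29 and 1.39, and the part of that library's share in the value of Sema7a was not tested. Records that reach over an edge of the coding sequence are counted only in the looser of the table's CDS modes. They numbered 13, 12 and 21 for Sema7a in the activated libraries and 0 in each resting library. The resting libraries held 11 Sema7a CDS counts in all, too few for their 0 here or in the 3' UTR to be informative. Over the 6 libraries the records over an edge were 3.32 per 100 CDS records of the looser mode, against a median of 6.11 in the 601 genes.

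**Figure D3:**
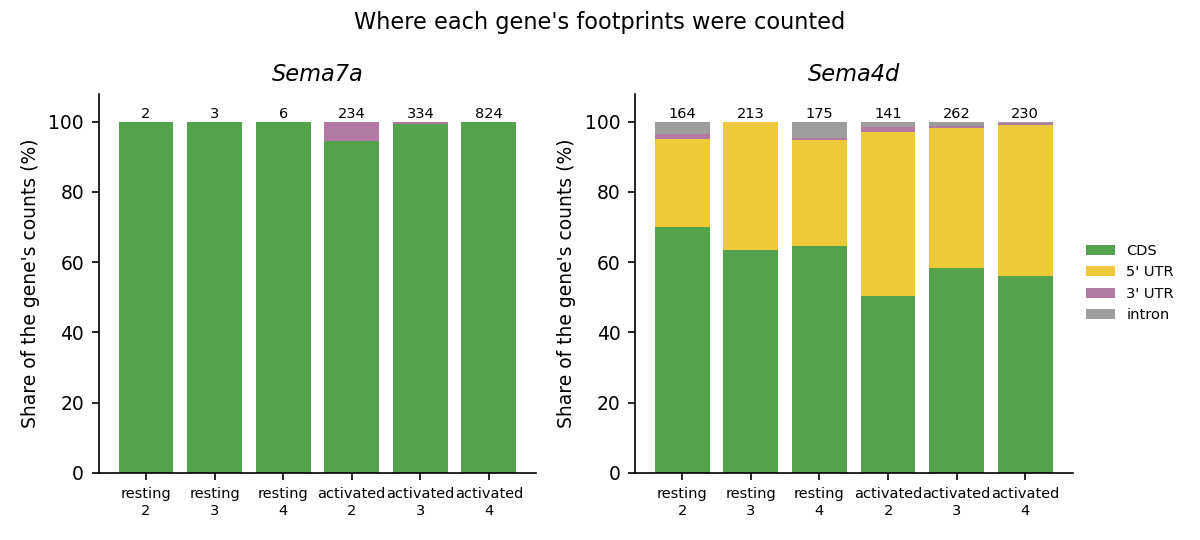
Share of each gene's counts (%) that lay in CDS (looser mode), 5' UTR, 3' UTR and introns, by library, with the total above each bar, for Sema7a and Sema4d. Sema7a has no 5' UTR counts, and its totals of 2, 3 and 6 in resting libraries are too small to show shares. In Sema4d the 5' UTR part is larger in each activated library than in each resting library. The ratio of 5' UTR to CDS counts separates in this way in 13.8% of 5867 genes.

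The genes whose CDS profile lay closest to that of Sema7a also had few counts in resting and many in activated cells. Likeness was the Euclidean distance between log2 CPM profiles over the 6 libraries, each centred on its mean. The nearest gene, ENSMUSG00000041515.8, lay at a distance of 0.950. It had 9, 8 and 20 counts in the resting libraries and 461, 799 and 1296 in the activated ones. The next, ENSMUSG00000038418.7, lay at 1.53, with 22, 23 and 38 counts in resting and 882, 1116 and 1953 in activated libraries. The files do not pair these IDs with symbols. Over 6 points in 2 groups, such a distance mostly measures the size of the step between the groups.

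Sema4a was near the limit of detection in both groups. It had 1, 1 and 6 CDS counts in resting cells and 2, 6 and 7 in activated cells. The groups overlapped, and resting replicate 4 was above each activated library in CPM. The means were 4.32 ± 4.26 CPM in resting and 6.51 ± 1.71 CPM in activated cells (SD, n = 3 each). The ratio of pooled counts, 15 against 8, was 1.5 with an exact 95% interval of 0.598 to 4.09. In a fit without the low-count filter the log2 change was 0.61 (SE 0.66), and it was 1.85 without resting replicate 4 and 0.19 without resting replicate 3. A change of Sema4a was thus not detectable at this depth. The 5' UTR of Sema4a had 0 counts in each resting library and 0, 3 and 1 in the activated ones, and its 3' UTR had 1 count in all, in resting replicate 3. Introns held 2 counts in each group.

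Sema4d had footprints in both groups, at a somewhat lower mean level in activated cells. It had 114, 133 and 113 CDS counts in resting and 70, 150 and 129 in activated libraries. In CPM these were 240, 216 and 174 in resting and 159, 189 and 137 in activated cells, with means of 210 ± 33.4 and 162 ± 25.7 (SD, n = 3 each). The groups overlapped, since activated replicate 3 was above resting replicate 4. The fitted log2 change was -0.37 (SE 0.18) and did not pass the threshold. That call turned with the scaling: Sema4d passed, as lower in activated cells, with library totals alone (-0.71, SE 0.18) and with upper quartile factors (-0.51, SE 0.18), scalings that put the median of all genes at -0.38 and -0.18. It did not pass under the other 13 alternatives, among them -0.22 without activated replicate 4 and -0.09 in counts over all exons, and it was below 0 under each of the 15.

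The leader of Sema4d carried footprints in every library, at levels that overlapped between the groups. Its 5' UTR counts were 41, 78 and 53 in resting and 66, 104 and 99 in activated cells. Scaled to the 5' UTR counts of the 2200 genes tested, with TMM factors, the levels were 821 ± 142 CPM in resting and 882 ± 68.0 CPM in activated cells (SD, n = 3 each). The fitted log2 change was 0.10 (SE 0.23). The sign of this change was not settled: it was -0.14 with library totals alone, -0.02 with upper quartile factors, and -0.02 and -0.03 without resting replicate 2 or 4. In the fit over all 5' UTR counts 42% of 2200 genes passed the threshold, and Sema4d did not.

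Set against its own coding sequence, the leader of Sema4d was higher in each activated library than in each resting library. Such a separation in the activated direction was found in 13.8% of the 5867 genes with the counts to form the ratio. For every 100 CDS counts the 5' UTR of Sema4d held 36.0, 58.6 and 46.9 counts in resting libraries, and 94.3, 69.3 and 76.7 in activated libraries. The means were 47.2 ± 11.3 and 80.1 ± 12.8 (SD, n = 3 each). As a share of exon counts, the 5' UTR held 25.9%, 36.6% and 31.7% in resting libraries. It held 47.5%, 40.2% and 43.2% in activated libraries. Sema4d exon counts were nearly all CDS or 5' UTR counts, so the share restates the ratio and is not a separate result. How many of all genes separate by this share was not counted. The 95% Wilson intervals of single libraries were wide, at 30.4% to 43.3% in resting replicate 3 and 34.4% to 46.2% in activated replicate 3, so these neighbours do not differ beyond counting error.

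The reverse separation, with each activated library lower, was found in 3.19% of the 5867 genes with the counts to form the ratio, against 13.8% in the activated direction. Gene by gene, with the libraries of a group pooled, the median ratio was 20.8 in resting (6268 genes) and 25 in activated cells (6273 genes). Of these genes, 24.9% in resting and 17.2% in activated cells had a higher ratio than Sema4d. Over all genes summed, the same ratio was 14.2, 15.5 and 14.0 in resting libraries, and in activated libraries it was 20.0, 15.1 and 14.3. Activated replicate 2 was thus the highest library both for Sema4d and for the sum, and the part of this library-wide value in that of Sema4d was not tested. Without activated replicate 2 the fitted log2 change of the ratio was 0.48, against 0.47 with all libraries. That fit scales each region on its own, which already takes out a library-wide offset, so leaving out the library cannot test its part.

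When CDS and leader counts were fitted together in edgeR, each region with its own scaling, the log2 change of the Sema4d 5' UTR relative to its CDS was 0.47 (SE 0.28). This did not pass the threshold, which 0.0955% of 6282 genes passed, and 29.3% of those genes had a higher value. It was 0.74 with 1 scaling for both regions and 0.27 without resting replicate 2, the library with the lowest ratio. Sema7a and Sema4a had too few 5' UTR counts for this model. The 3' UTR of Sema4d held 3 counts in all in resting and 5 in activated libraries, and its introns 14 and 6.

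**Figure D4:**
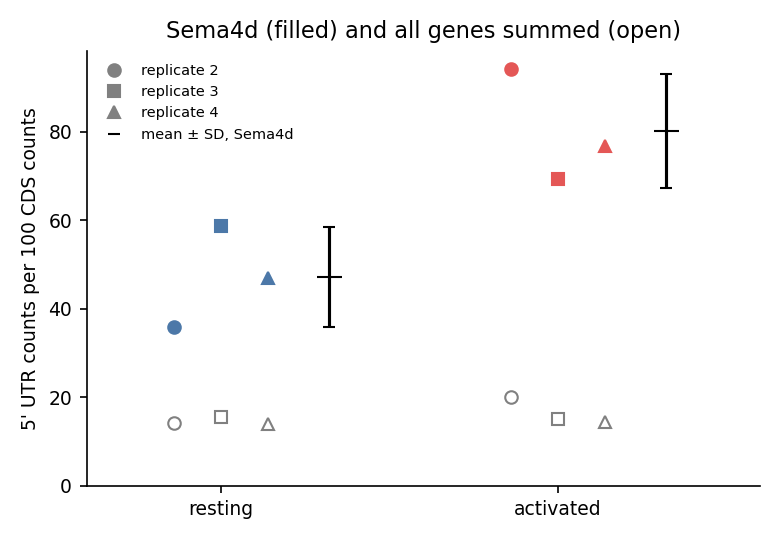
Leader (5' UTR) counts for every 100 CDS counts, for Sema4d (filled, with mean ± SD of 3 libraries in black) and for all genes summed (open, grey), by group; shapes mark the replicate number. Sema4d lies between 36.0 and 58.6 in resting and between 69.3 and 94.3 in activated libraries, while the sum over all genes stays between 14.0 and 20.0. The groups separate in this direction in 13.8% of 5867 genes. The median of single genes, not drawn, was 20.8 in resting and 25 in activated libraries, pooled by group.

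**Figure D5:**
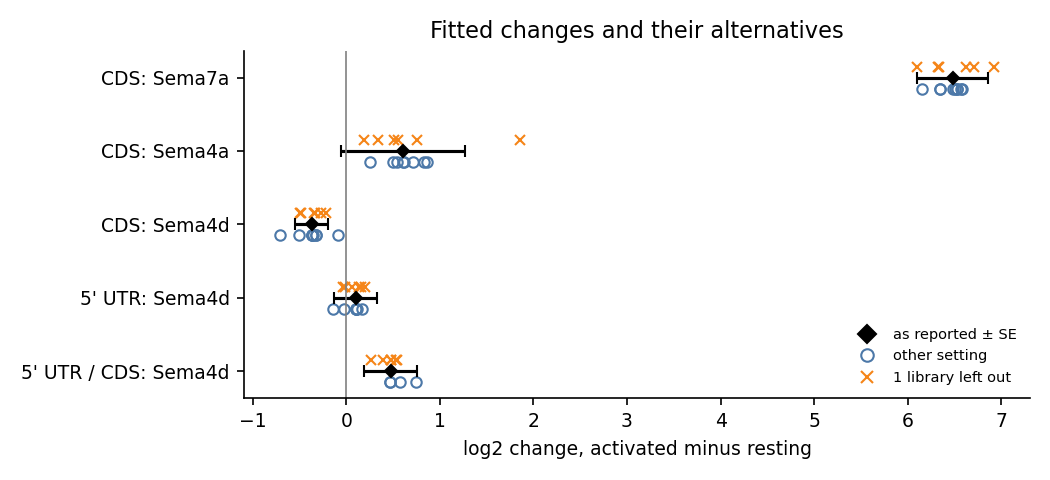
Fitted log2 changes, activated minus resting, as reported (black diamonds, ± SE), under other settings (blue circles) and with 1 library left out (orange crosses). Sema7a stays between 6.10 and 6.92, Sema4d stays below 0 in CDS counts, and its 5' UTR change lies on both sides of 0.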

How the data were processed

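The authors deposited 1 table of raw counts per gene and library, in coding sequence (2 modes), 5' UTR, 3' UTR, exons and introns. HTSeq, Bowtie 1.1.1.0 and TopHat2 2.0.13 are the tools, and mm10 the build, per the submitters' processing notes; for the annotation and the strand setting the sources used here give nothing, so records of genes that overlap on opposite strands may be mixed. Summary rows that name no gene were left out. CDS counts were fitted with edgeR 4.0.16 in R 4.3.3 (filterByExpr with a minimum of 10 counts, TMM, glmQLFit with legacy off, glmQLFTest, two-sided, Benjamini-Hochberg over all genes tested, threshold 0.05). 5' UTR counts were fitted likewise, and both together with a region term for genes with at least 5 counts in each region. DESeq2 1.42.0 and limma 3.58.1 were alternatives. SE is the absolute change divided by the root of its F statistic. The scripts were tested on simulated data. The labels call libraries biological replicates without naming animals, so the spread is between these libraries. Members, lists and tests were chosen with earlier results of these data known. Genes were named by 3 parts of a rule: the semaphorins by ID, listed pathway genes by symbol, and the genes nearest in profile. Of 22322 IDs, 0 matched a symbol in the RefSeq gene table; the symbols of the 3 semaphorins came with their IDs.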

Additional observations from a re-analysis of the deposited data

How the results depend on the processing

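The CDS log2 change of Sema7a kept its direction under all 15 alternatives (6.10 to 6.92; 6.10 to 6.92 with each library left out), and that of Sema4a under 14 (0.19 to 1.85). That of Sema4d was below 0 under 15 (-0.71 with library totals alone to -0.09 in all exons; -0.50 to -0.22 with a library left out); it passed the threshold under 2, library totals alone and upper quartile factors (-0.51), and not as reported. The 5' UTR change of Sema4d kept its sign in 9 of 13. Its change relative to the CDS, whose alternatives were chosen after seeing the data, was 0.27 to 0.74 under 10. CDS genes passing the threshold numbered 3097 and 2437 to 3674 otherwise; with library totals alone 1102 were higher and 2572 lower, against 1633 and 1464. In 5' UTR counts 924 passed (700 to 1073). For 5' UTR relative to CDS, edgeR called 6 genes (556 at an unadjusted p under 0.05), 0 with 1 scaling for both regions (648) and 0 with the replicate block (465), and 0 to 7 with a library left out (0, 1 and 1 without resting replicate 2, 3 or 4, and 2 without activated replicate 3); the cause was not tested. Deviations of same-numbered libraries correlated at 0.13, 0.08 and 0.22 across genes. Libraries of unlike number were not compared, so whether the numbers pair the libraries was not tested. With the replicate block the CDS change was 6.50 for Sema7a (SE 0.23, against 0.38 without it). It was -0.36 for Sema4d (SE 0.15, against 0.18), and the block gave 3455 CDS and 824 5' UTR genes. Sema7a (0 counts) and Sema4a (4 counts) gave no 5' UTR fit, and the count of pathway genes was not run, for want of symbols. Depth limits Sema4a, with 23 CDS counts in all, and the resting level of Sema7a.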
